A study of Mus musculus with 8 samples.

Results

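Complement is the system of plasma proteins that tags and lyses microbes, and its 38 genes listed by symbol were followed here in mouse liver RNA sequencing. The members were chosen by name as complement components, lectin pathway proteins, regulators and receptors, with earlier results of these data known. All 38 were found among the 23337 gene symbols of the files, 37 had at least 1 count in some library, and 36 passed the filter on low counts and were tested. They fall into 6 genes made by macrophages (C1qa, C1qb, C1qc, Cfp, C3ar1 and C5ar1), 23 genes made mainly by hepatocytes, and 9 genes of other or several cell types. The livers came from C57BL/6 mice aged 12 weeks. WT mice were compared with HRD1Alb mice, labelled Hrd1-/-, in which a Cre recombinase driven by the albumin promoter deletes a floxed HRD1 gene in hepatocytes, so that other liver cells are expected to keep the gene. The labels do not say whether the WT mice carried the floxed gene. Each genotype was sampled after an overnight fast and after a fast followed by 4 h of refeeding, which gave 4 groups of 2 samples. The labels do not say whether the 2 samples of a group were separate animals, and the p-values measure only the spread between these samples.

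HRD1 is a ubiquitin ligase of the endoplasmic reticulum membrane that sends misfolded proteins for degradation. Hepatocytes make and secrete most complement proteins of the blood, and they pass through that compartment. Complement is started in 3 ways. In the classical pathway, C1q with its proteases C1r and C1s cleaves C4 and C2. In the lectin pathway, mannose-binding lectins and ficolins do so with the MASP proteases. The alternative pathway runs on C3, factor B, factor D and properdin. All of them cleave C3 and then C5, which opens the terminal pathway, in which C5b, C6, C7, C8 and C9 form the membrane attack complex. C1q and properdin come mainly from macrophages and other myeloid cells, which in liver are largely the resident Kupffer cells, and C3ar1 and C5ar1 encode the receptors for the fragments C3a and C5a.

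The 250 bases before the annotated start are shown for the 4 hepatocyte-made genes that passed the test between genotypes in both feeding states, and for C1qb as a macrophage-made gene. They are Hc (chr2:35061413-35061662, minus strand), C8a (chr4:104876399-104876648, minus strand), Cfhr2 (chr1:139858700-139858949, minus strand), C9 (chr15:6445096-6445345, plus strand) and C1qb (chr4:136886201-136886450, minus strand), from RefSeq on GRCm38.p6. Capitals mark any match on either strand to the motifs searched, which are listed after the sequences.
Hc: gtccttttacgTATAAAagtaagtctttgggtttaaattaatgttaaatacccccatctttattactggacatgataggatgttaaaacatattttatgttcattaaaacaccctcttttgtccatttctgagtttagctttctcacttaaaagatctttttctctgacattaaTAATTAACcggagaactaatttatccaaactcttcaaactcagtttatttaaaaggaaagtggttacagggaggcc
C8a: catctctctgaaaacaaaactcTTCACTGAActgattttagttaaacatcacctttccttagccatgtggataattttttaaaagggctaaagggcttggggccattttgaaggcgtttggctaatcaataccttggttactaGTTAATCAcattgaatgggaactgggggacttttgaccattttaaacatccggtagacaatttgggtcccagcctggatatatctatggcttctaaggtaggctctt
Cfhr2: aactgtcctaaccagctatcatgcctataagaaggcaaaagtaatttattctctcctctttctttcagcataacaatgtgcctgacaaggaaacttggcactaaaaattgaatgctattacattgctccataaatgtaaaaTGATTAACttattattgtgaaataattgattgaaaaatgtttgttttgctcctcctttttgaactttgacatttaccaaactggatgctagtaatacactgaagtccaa
C9: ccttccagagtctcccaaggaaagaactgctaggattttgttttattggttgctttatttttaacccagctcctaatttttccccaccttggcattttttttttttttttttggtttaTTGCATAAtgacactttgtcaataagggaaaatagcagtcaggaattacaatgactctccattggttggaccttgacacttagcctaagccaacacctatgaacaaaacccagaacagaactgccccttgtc
C1qb: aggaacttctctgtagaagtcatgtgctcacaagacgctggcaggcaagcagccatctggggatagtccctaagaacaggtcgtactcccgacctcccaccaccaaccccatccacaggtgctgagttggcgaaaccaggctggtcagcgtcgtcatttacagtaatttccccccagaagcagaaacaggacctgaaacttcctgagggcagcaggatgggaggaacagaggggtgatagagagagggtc

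The motifs were an HNF1-type site (GTTAATNA), a C/EBP-type site (TTGCNNAA), a STAT-type palindrome (TTCNNNGAA), a PU.1/ETS-type core (GAGGAAGT), an HNF4A-type direct repeat (CAAAGTCCA), an amino acid response element (TGATGNAA), the endoplasmic reticulum stress element and the TATA box (TATAAA). HNF1 and C/EBP factors are known activators of liver genes, and PU.1 of myeloid genes. An HNF1-type site stood at -76 to -69 in Hc, at -107 to -100 in C8a and at -109 to -102 in Cfhr2, counted from the start. Of the 16 hepatocyte-made members with a window, 4 held it, as did 1 of the 5 macrophage-made members (Cfp) and 1 of the 9 others (C7), against 2.39% of 27025 promoters. C9 held a C/EBP-type site at -132 to -125, as did 4 of the 16, against 9.55% of all promoters. C8a also held the STAT-type palindrome, at -228 to -220, found in 3 of the 16 and in 7.18% of all. Hc held the letters of the TATA box at -239 to -234, near the far end of its window. They were found in 2 of the 16 and in 13.0% of all. No match overlapped another in these 5 windows, and the window of C1qb held no match. Among the 5 macrophage-made members with a window the PU.1/ETS-type core was in 1, C1qc, against 2.44% of all promoters. The stress element, present in 0.122% of all promoters, the amino acid response element, in 3.53%, and the HNF4A-type repeat, in 0.381%, matched no member. A match is a match of letters and not a measured site.

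Total counts ranged from 40210576 to 49117080 per library, and complement genes took 1.49% to 2.15% of them. Values are TMM-normalized CPM, a gene's counts relative to the scaled total of its library, and at this depth 3 counts, taken as the detection floor, corresponded to 0.0508 to 0.0788 CPM. Syvn1, the gene of HRD1 (chr19:6046576-6053712), read 111 and 99.8 CPM in WT fasted liver and 32.6 and 31.5 CPM in HRD1Alb fasted liver. In refed liver it read 637 and 305 CPM in the WT libraries and 453 and 132 CPM in those labelled HRD1Alb. The fasted groups did not overlap, whereas the refed groups did, and neither difference passed the test (log2 fold change -1.72 ± 0.56, adjusted p = 0.170, and -0.69 ± 0.55, adjusted p = 0.391). The counts cover the whole gene and do not single out the deleted exons, so they check the labels only in part. Groups are therefore given below as labelled, and each direction in refed liver rests on libraries labelled HRD1Alb that Syvn1 did not set apart. One library stood apart: the 2 refed libraries labelled HRD1Alb correlated at a Spearman rho of 0.955 over genes, against 0.990 to 0.995 in the other groups, and 3204 genes differed 2-fold between them.

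In livers labelled HRD1Alb the macrophage-made complement genes were higher and most hepatocyte-made ones lower than in WT livers, in both feeding states. In fasted liver 1 of the 36 tested members rose (C3ar1) and 4 fell (C8a, C9, Cfhr2 and Hc), where 0.921% of all 14328 tested genes were called higher and 0.433% lower at an adjusted p under 0.05. In refed liver 6 members rose, which were the 6 macrophage-made genes, and 11 fell, all of them hepatocyte-made, where 7.09% of all genes were called higher and 4.84% lower. The median log2 fold change of the macrophage-made genes was 1.51 in fasted and 1.96 in refed liver. That of the hepatocyte-made genes was -0.78 and -0.89, and that of all tested genes was -0.02 and 0.04. Samples of the genotypes did not overlap for 8 higher and 22 lower members in fasted liver, where that held for 30.6% and 34.2% of all genes, and for 7 higher and 17 lower in refed liver, where it held for 30.7% and 30.1%. Of the 23 hepatocyte-made genes, 22 were on the negative side in fasted liver and 20 in refed liver, as shown in the plot of fold changes by cell source. The 7 tested genes of other or several cell types had medians of 0.06 and 0.02, and their smallest adjusted p was 0.434 in fasted and 0.139 in refed liver. Those adjusted p belong to Fcna, a ficolin found on macrophages that was placed in this class and not among the macrophage-made genes.

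**Figure D1:**
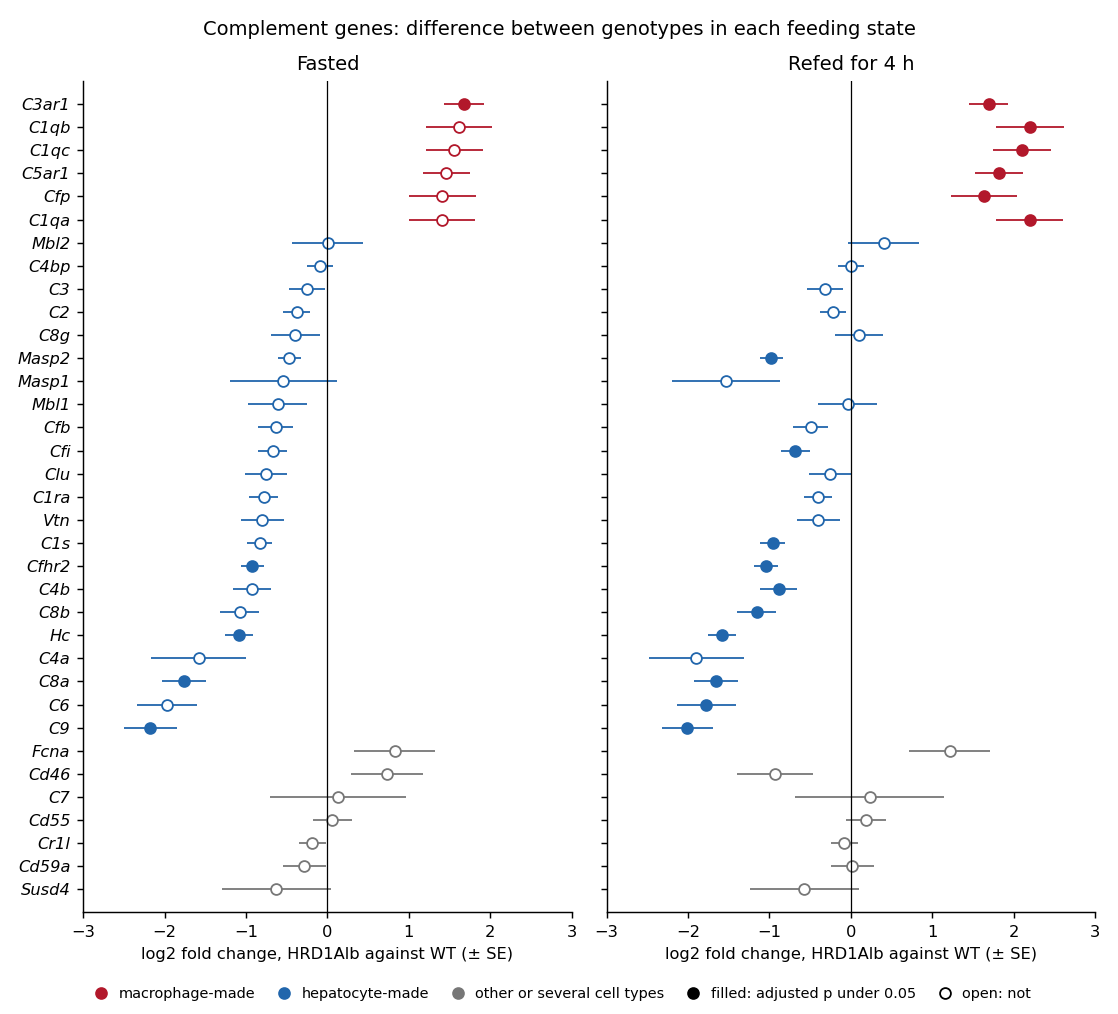
Log2 fold change of HRD1Alb against WT (x axis, ± SE from the fit across 8 libraries) for 35 of the 36 tested complement genes (y axis, by cell source) in fasted (left) and refed (right) liver; filled points passed an adjusted p of 0.05, and C1rb, whose SE exceeds 1, is left out. The 6 macrophage-made genes lie to the right of 0 in both panels and most hepatocyte-made genes to the left.

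These counts depended on which libraries were in the fit, in which all groups share one estimate of the spread. Without HRD1Alb refed replicate 2, 7 members were called higher and 20 lower in fasted liver, where 9.66% and 11.6% of all genes were called. In refed liver that fit called 6 higher and 19 lower, where 11.9% and 11.7% of all genes were called. Its higher calls in refed liver were macrophage-made genes only. Without HRD1Alb refed replicate 1 they also included hepatocyte-made genes and genes of other or several cell types. The hepatocyte-made median log2 fold change in refed liver was -0.86 without replicate 2, with 1 of 23 genes positive. It was -0.72 without replicate 1, with 4 of 23 positive. The macrophage-made median was 1.36 without replicate 2 and 2.36 without replicate 1. Without HRD1Alb refed replicate 1 the counts were 7 and 20 in fasted liver, where 9.84% and 11.8% of all genes were called, and 11 and 13 in refed liver, where 25.0% and 27.8% were. Leaving out any other library left no called member in fasted liver. Leaving out either WT refed library left none in refed liver, and leaving out a fasted library left 3 to 5 higher and 7 or 8 lower. When counts were scaled by library size alone, the median of all tested genes moved to 0.36 in fasted and 0.26 in refed liver. The members called were then 6 higher and 2 lower in fasted liver, where 5.86% and 0.328% of all genes were called, and 6 higher and 9 lower in refed liver, where 13.8% and 1.98% were. By the DESeq2 Wald test the counts were 6 and 11 in fasted liver, where 4.41% and 3.22% of all genes were called, and 6 and 13 in refed liver, where 11.9% and 10.3% were. A fit to the 4 fasted samples alone called 7 and 16 members, where 8.26% and 6.32% of all genes were called, and a fit to the 4 refed samples alone called no member, where the share of all genes was 0.0% in each direction. With the replicate number as a block 0 and 2 members were called in fasted liver, where 0.572% and 0.258% of all genes were called, and 5 and 11 in refed liver, where 5.54% and 4.2% were.

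The 3 chains of C1q, the recognition molecule of the classical pathway, are encoded side by side on chromosome 4 and were 2.65 to 3.07 times as abundant in HRD1Alb fasted liver as in WT. C1qa read 14.5 and 12.7 CPM in WT fasted liver, 37.6 and 34.6 in HRD1Alb fasted liver, 13.7 and 12.8 in WT refed liver, and 33.1 and 88.6 in the refed libraries labelled HRD1Alb. C1qb read 12.9 and 12.1 CPM, then 42.9 and 33.9, then 13.2 and 14.8, then 35.5 and 93.3 in the same order of groups. C1qc read 14.3 and 13.7 CPM, 45.5 and 37.0, 14.1 and 13.6, and 36.5 and 82.6. Every library labelled HRD1Alb was above every WT library of the same feeding state, and the WT libraries of both states stayed within 12.1 to 14.8 CPM for all 3 chains. In refed liver the log2 fold changes were 2.20 ± 0.41 (adjusted p = 0.0236) for C1qa, 2.20 ± 0.41 (adjusted p = 0.0236) for C1qb and 2.10 ± 0.36 (adjusted p = 0.0183) for C1qc. In fasted liver they were 1.41, 1.62 and 1.56, with adjusted p of 0.130, 0.103 and 0.0814. The refed fold changes rest in part on HRD1Alb refed replicate 2, without which they were 1.31, 1.34 and 1.39. The chains kept near-equal counts in every library: C1qb had 0.890 to 1.16 counts per count of C1qa, and C1qc 0.932 to 1.21.

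Properdin, the product of Cfp, stabilizes the alternative pathway convertase. Cfp read 7.48 and 6.11 CPM in WT fasted, 19.8 and 16.3 in HRD1Alb fasted, 8.49 and 8.06 in WT refed and 14.3 and 37.2 in HRD1Alb-labelled refed liver. It did not overlap between genotypes in either state, and it rose in refed liver (log2 fold change 1.63 ± 0.41, adjusted p = 0.0456), though by 0.78 without HRD1Alb refed replicate 2. In fasted liver the difference was 1.41 ± 0.41 (adjusted p = 0.133).

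Of the 2 anaphylatoxin receptors, both were present at a few CPM and both were higher in livers labelled HRD1Alb. C3ar1, the C3a receptor, read 1.15 and 1.31 CPM in WT fasted, 4.34 and 3.54 in HRD1Alb fasted, 1.75 and 1.65 in WT refed and 5.15 and 5.88 in HRD1Alb-labelled refed liver. It rose in fasted (log2 fold change 1.68 ± 0.24, adjusted p = 0.0339) and in refed liver (1.69 ± 0.24, adjusted p = 0.0121). C5ar1, the C5a receptor, read 0.848 and 0.876 CPM, 2.80 and 1.96, 0.815 and 0.945, and 3.05 and 3.18 in the same order. The change of C5ar1 passed the test in refed liver (1.82 ± 0.29, adjusted p = 0.0153) and missed it in fasted liver (1.46 ± 0.29, adjusted p = 0.0600). Unlike the C1q chains, the receptors agreed closely between the 2 refed libraries labelled HRD1Alb, and both transcripts are longer than those of C1q.

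**Figure D2:**
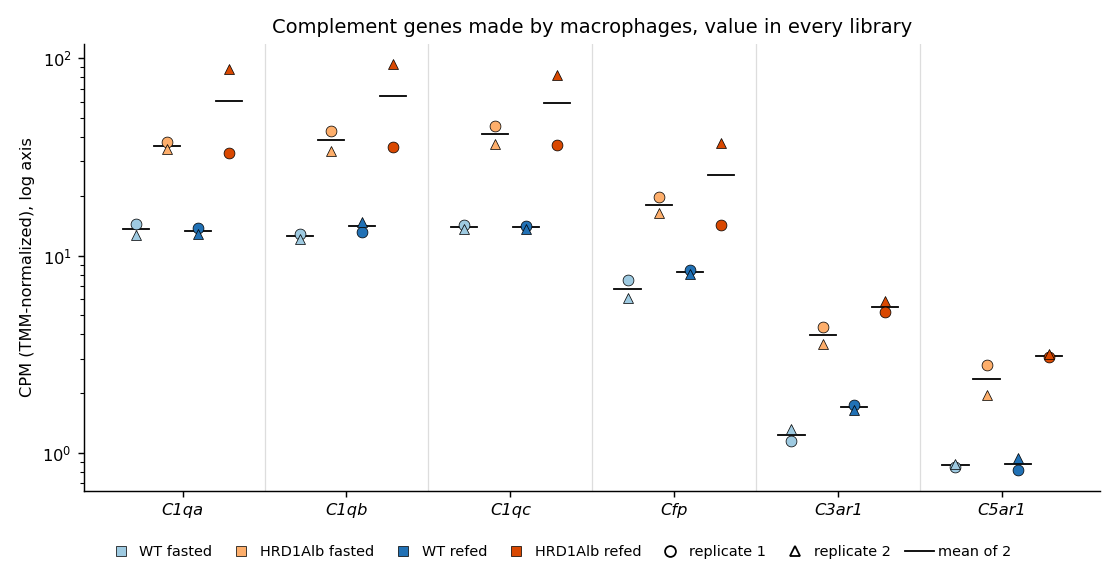
TMM-normalized CPM (y axis, log scale) of the 6 macrophage-made complement genes (x axis) in each of the 8 libraries, coloured by group, with the 2 replicates as circle and triangle and their mean as a bar. For every gene the orange HRD1Alb points lie above the blue WT points of the same feeding state, and the refed HRD1Alb replicates are far apart for C1qa, C1qb, C1qc and Cfp and close for C3ar1 and C5ar1.

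The macrophage markers moved in the same direction. All 10 genes of a Kupffer cell and macrophage list, among them Clec4f, Emr1 and Cd5l, had a positive log2 fold change in both states, with a median of 1.31 in fasted and 1.45 in refed liver. Of these, 2 were called in fasted liver, where 0.921% of all tested genes were called higher, and 7 in refed liver, where 7.09% were. Their summed level was 129 to 145.5 CPM in WT fasted, 303.5 to 409.7 in HRD1Alb fasted, 146 to 147 in WT refed and 297 to 558 in HRD1Alb-labelled refed liver, and no marker was at 0. Against Clec4f, a marker of Kupffer cells, C1qa had 0.373 and 0.417 counts per count in WT fasted liver and 0.372 and 0.422 in HRD1Alb fasted liver. In refed liver that ratio was 0.385 and 0.334 in WT and 0.541 and 0.636 in HRD1Alb-labelled libraries. For C1qb it was 0.332 and 0.400 in WT fasted and 0.425 and 0.414 in HRD1Alb fasted liver. For C1qc it was 0.368 and 0.449, and 0.450 and 0.451. In refed liver C1qb had 0.371 and 0.386 in WT and 0.581 and 0.669 in HRD1Alb-labelled libraries, and C1qc 0.396 and 0.355, and 0.597 and 0.592. More macrophages and more complement RNA per macrophage cannot be told apart in whole liver RNA, and the same holds for fewer hepatocytes and less RNA per hepatocyte. The part of the markers in the result was not tested. Stellate cell and fibroblast markers also moved, with all 8 on the positive side in both states. Of them 4 were called in refed liver (Col1a1, Col1a2, Col3a1 and Des), where 7.09% of all tested genes were called higher. All 5 cholangiocyte markers were on the negative side in fasted and on the positive side in refed liver. Of 5 endothelial markers, 4 were on the positive side in fasted and 3 in refed liver, with medians of 0.19 and 0.43. No cholangiocyte or endothelial marker was called. Of 5 tested neutrophil markers, 3 were on the positive side in fasted and 4 in refed liver. S100a9 alone was called (adjusted p = 0.0496), in refed liver, where 7.09% of all tested genes were called higher. The neutrophil list summed to 2.44 to 3.36 CPM in WT fasted and 4.12 to 4.52 in HRD1Alb fasted liver. In refed liver it summed to 2.22 to 4.25 CPM in WT and 5.67 to 11.6 in HRD1Alb-labelled libraries. Of 6 lymphocyte markers, 5 were on the positive side in each state with a smallest adjusted p of 0.181 and 0.0870, and they summed to 2.39 to 2.42, 3.42 to 4.29, 2.63 to 3.16 and 3.96 to 6.93 CPM in the same order. Cfp, C5ar1, Itgb2 and Itgax are also expressed by such leukocytes, and the part of these markers in the result was not tested.

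Terminal pathway genes, apart from C7 and C8g, were lower in every library labelled HRD1Alb than in the WT libraries of the same feeding state. Summed over its 7 genes, the level was 2824 to 2979 CPM in WT fasted, 1037 to 1324 in HRD1Alb fasted, 3129 to 3264 in WT refed and 1056 to 1510 in HRD1Alb-labelled refed liver. In fasted liver 3 of the 7 fell, where 0.433% of all tested genes were called lower, and in refed liver 5, where 4.84% were. Their median log2 fold change was -1.09 in fasted and -1.59 in refed liver.

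C9, whose product polymerizes into the pore of the membrane attack complex, read 431 and 394 CPM in WT fasted, 68.7 and 114 in HRD1Alb fasted, 445 and 390.5 in WT refed and 77.9 and 129.9 in HRD1Alb-labelled refed liver. It fell by the widest margin among the terminal genes, with a mean 4.51-fold lower in fasted and 4.02-fold lower in refed liver (log2 fold change -2.17 ± 0.32, adjusted p = 0.0347, and -2.01 ± 0.32, adjusted p = 0.0152). C8a, the alpha chain of C8, which inserts into the target membrane, read 674 and 779 CPM, 165 and 263, 748 and 763, and 199 and 281 in the same order of groups. It fell in fasted and in refed liver (log2 fold change -1.76 ± 0.27, adjusted p = 0.0380, and -1.65 ± 0.27, adjusted p = 0.0162). Hc, the mouse gene of C5, from which the anaphylatoxin C5a and the C5b that starts the complex are cut, read 965 and 828 CPM, 400.2 and 444, 1095 and 1151, and 353.5 and 394.5. It fell in both states as well (log2 fold change -1.09 ± 0.17, adjusted p = 0.0375, and -1.59 ± 0.17, adjusted p = 0.00820), and refed liver gave the lowest adjusted p of any member. For C9, C8a and Hc no HRD1Alb value reached a WT value.

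C6, the component that binds C5b, read 278 and 163 CPM in WT fasted, 44.1 and 68.5 in HRD1Alb fasted, 279 and 163 in WT refed and 63.2 and 65.9 in HRD1Alb-labelled refed liver. It fell in refed liver (log2 fold change -1.78 ± 0.37, adjusted p = 0.0290) and differed by -1.97 ± 0.37 in fasted liver (adjusted p = 0.0540), and the WT replicates were themselves well apart. C8b, the beta chain of C8, read 304 and 349.8 CPM, 125 and 185, 383 and 347, and 140.0 and 187 in that order. It fell in refed liver (-1.16 ± 0.24, adjusted p = 0.0290) and differed by -1.08 ± 0.24 in fasted liver (adjusted p = 0.0770). C8g, the small lipocalin-like chain of C8, behaved differently from its partners, since its values were 326 and 309.6 CPM, 234 and 249, 314 and 315, and 223 and 452. The groups did not overlap in fasted liver and did overlap in refed liver, where the fitted difference was 0.10 ± 0.30 (adjusted p = 0.826). It turned to -0.39 with a correction for transcript length and to -0.50 without HRD1Alb refed replicate 2. As counts per count of C8b, C8a had 1.95 to 2.23 in the WT libraries and 1.32 to 1.51 in the HRD1Alb libraries, and C8g 0.821 to 1.07 and 1.35 to 2.42, so the 3 chains of C8 were not in the same proportion. C7, which is made largely outside hepatocytes, had at most 24 counts in any library and was not called (adjusted p = 0.954 and 0.872).

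**Figure D3:**
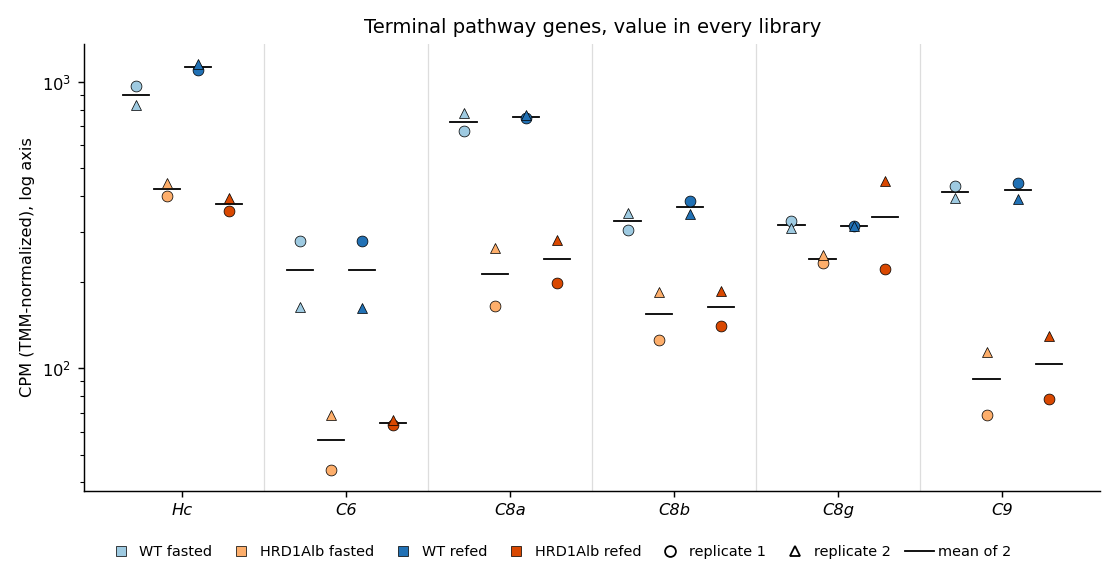
TMM-normalized CPM (y axis, log scale) of 6 terminal pathway genes (x axis) in each of the 8 libraries, coloured by group, with replicates as circle and triangle and their mean as a bar; C7, at no more than 0.406 CPM, is not drawn. The HRD1Alb points lie below the WT points of the same feeding state for Hc, C6, C8a, C8b and C9, and those of C8g overlap with WT in refed liver.

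Among the proteases and substrates of the classical pathway, C1s fell in refed liver. C1s, listed by RefSeq as C1s1, read 431 and 386 CPM in WT fasted, 229 and 229.7 in HRD1Alb fasted, 405 and 413 in WT refed and 198 and 223 in HRD1Alb-labelled refed liver (refed log2 fold change -0.96 ± 0.15, adjusted p = 0.0150). Its fasted difference was -0.83 ± 0.15 (adjusted p = 0.0516). C1ra read 209.7 and 217 CPM, 123 and 125.5, 169 and 170.3, and 110.3 and 147 in the same order, with no overlap in either state and no call (-0.78, adjusted p = 0.0774, and -0.40, adjusted p = 0.152). C4b, the main C4 gene, read 1117 and 1139 CPM, 549 and 638, 948 and 1370, and 547 and 706, and it fell in refed liver (-0.89 ± 0.23, adjusted p = 0.0491), a call that was lost with RLE size factors. C2, the protease of the C3 convertase, read 102 to 147 CPM in WT and 84.8 to 115 CPM in HRD1Alb libraries and was not called (adjusted p = 0.274 and 0.359).

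C4a, the neighbour of C4b, is the gene known for the sex-limited protein of male mouse liver, and GENCODE lists it on GRCm38 as a processed transcript and not as protein coding. It read 11.1 and 4.75 CPM in WT fasted, 2.60 and 2.69 in HRD1Alb fasted, 19.5 and 11.1 in WT refed and 2.12 and 6.14 in HRD1Alb-labelled refed liver, so that no HRD1Alb library reached a WT library of its state. The log2 fold changes of -1.58 ± 0.59 and -1.90 ± 0.58 did not pass the test (adjusted p = 0.212 and 0.0747). C4a and C4b share 35.2% of their 50-base windows, so reads could be split between them. All 10 genes of a list of male-biased liver genes were lower in both states. Of them 7 were called in fasted liver, where 0.433% of all tested genes were called lower, and 8 in refed liver, where 4.84% were. Their summed levels were 3511 to 6926 CPM in WT fasted and 601 to 1055 in HRD1Alb fasted liver. In refed liver they were 2847 to 4862 CPM in WT and 544 to 898 in HRD1Alb-labelled libraries. Of a list of 12 female-biased genes, 10 were tested and 3 were called higher in each state (Cyp2a22, Cyp2b13 and Hao2). The share of all tested genes called higher was 0.921% in fasted and 7.09% in refed liver. Y-linked genes were read in all 8 libraries. The part of sex-biased expression in these results was not tested.

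C1rb is a second C1r gene next to C1ra on chromosome 6, and its counts were not alike within the HRD1Alb fasted group. It had 242 and 525 counts in WT fasted, 1 and 224 in HRD1Alb fasted, 221 and 425 in WT refed, and 3 and 0 in HRD1Alb-labelled refed liver. Thus 3 of the 4 libraries labelled HRD1Alb held at most 3 counts and HRD1Alb fasted replicate 2 held a count close to WT replicate 1. Summed over the group and scaled by library, WT refed liver had 287 times the counts of HRD1Alb-labelled refed liver, with a counting interval of 97.7 to 1395 at 95% confidence, and the edgeR call there (adjusted p = 0.0457) rests on a group near 0. In fasted liver the ratio was 4.46 (3.84 to 5.20, counting error only) and the test did not pass (adjusted p = 0.422). Gm5077, an older symbol of C1s2, lies nearby on chromosome 6 and encodes a second C1s. Its counts followed the same libraries, with 955 and 1790 in WT fasted, 2 and 610 in HRD1Alb fasted, 794 and 1867 in WT refed, and 2 and 1 in HRD1Alb-labelled refed liver. C1ra and C1s, which lie beside C1rb on the same chromosome, were read in every library, C1ra with 6271 to 8934 counts and C1s with 10156 to 17263. C1rb shares 59.2% of its 50-base windows with C1ra and C1s2 shares 26.9% with C1s1, so low counts of C1rb can include reads of its neighbour. An effect of genotype and a difference between the animals at this locus cannot be told apart from these counts, also where C1rb is counted among the members that fell.

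**Figure D4:**
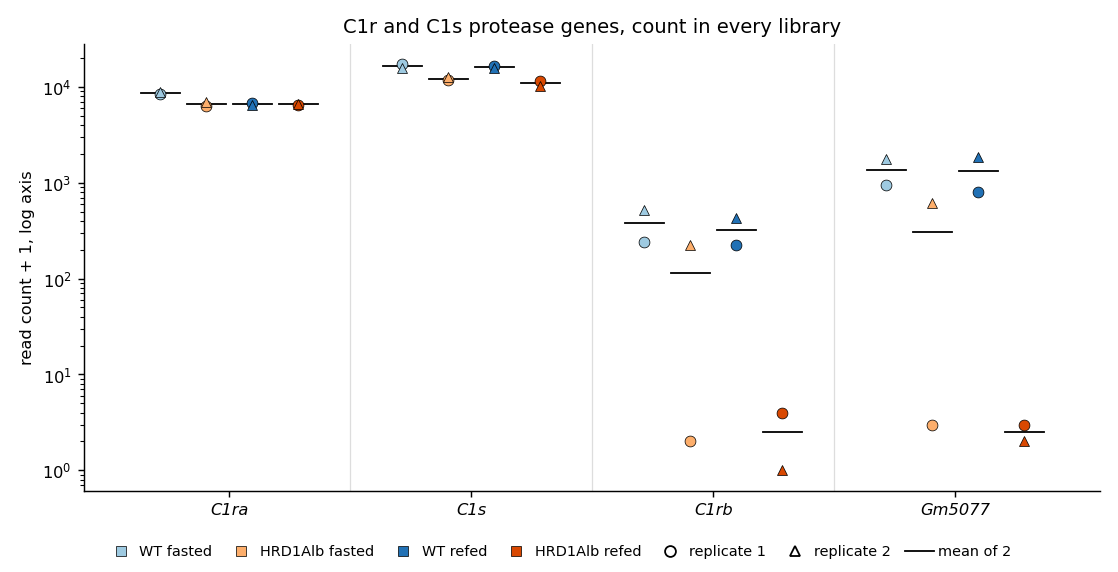
Read count plus 1 (y axis, log scale) of the genes C1ra, C1s, C1rb and Gm5077 (x axis) in each of the 8 libraries, coloured by group, with replicates as circle and triangle and their mean as a bar. C1ra and C1s differ little between libraries on this scale, whereas C1rb and Gm5077 drop to at most 3 counts in the same 3 libraries labelled HRD1Alb.

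Of the 5 tested lectin pathway members, only Masp2 passed the test between genotypes. Masp2, the protease that cleaves C4 and C2 in this pathway, read 172 and 165 CPM in WT fasted, 122 and 121 in HRD1Alb fasted, 177 and 195 in WT refed and 92.3 and 96.5 in HRD1Alb-labelled refed liver. It fell in refed liver by a log2 fold change of -0.98 ± 0.14 (adjusted p = 0.0134) and differed by -0.47 ± 0.14 in fasted liver (adjusted p = 0.146), and the interaction of genotype and feeding did not pass (adjusted p = 0.583). Masp1 read 53.3 and 51.9 CPM, 34.5 and 37.7, 74.6 and 68.3, and 42.4 and 6.86 in the same order, and with the last value far from its replicate it was not called (-0.54, adjusted p = 0.728, and -1.53, adjusted p = 0.156). Its transcript, of 8545 bases in GENCODE, is the longest of the members. The mannose-binding lectin genes overlapped between genotypes in refed liver. Mbl1 read 190.4 to 225 CPM in WT fasted against 126 and 145.5 in HRD1Alb fasted liver, and Mbl2 169 to 243 against 174 to 239, and in refed liver the libraries labelled HRD1Alb read 117 and 279 CPM for Mbl1 and 177 and 473 for Mbl2. Mbl2 had a fitted difference of 0.40 ± 0.44 in refed liver that turned to -0.23 with the length correction. Fcna, the ficolin found on macrophages of mouse liver and spleen, read 15.0 and 17.9 CPM, 33.2 and 25.1, 18.1 and 17.0, and 18.3 and 63.2, and its refed log2 fold change of 1.21 ± 0.50 (adjusted p = 0.139) was 0.05 without HRD1Alb refed replicate 2. Fcnb was at 0 in all 8 libraries, which allows up to 0.0788 CPM in the shallowest one.

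C3, on which all pathways meet, was the most abundant member and was not called. It took 0.623% to 0.896% of all counts and read 7109 and 9259 CPM in WT fasted, 6439 and 7333 in HRD1Alb fasted, 7695 and 9457 in WT refed and 6392 and 7346 in HRD1Alb-labelled refed liver. The log2 fold changes of -0.25 ± 0.22 and -0.32 ± 0.22 did not pass the test (adjusted p = 0.616 and 0.332), and with library size alone the fasted value became 0.14. Cfb, the protease of the alternative convertase, read 1144 to 1341 CPM in WT and 689 to 1015 CPM in HRD1Alb libraries, without overlap in either state (adjusted p = 0.182 and 0.156). Cfd, the factor D that fat tissue supplies, was not tested, with 7 and 4 counts in WT fasted, 0 and 0 in HRD1Alb fasted, 7 and 16 in WT refed and 1 and 3 in HRD1Alb-labelled refed liver.

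Of the 10 regulators, Cfhr2 fell in both states and Cfi in refed liver. Cfhr2 read 502 and 513 CPM in WT fasted, 264 and 272 in HRD1Alb fasted, 507 and 476 in WT refed and 241 and 236 in HRD1Alb-labelled refed liver. It fell in fasted (log2 fold change -0.92 ± 0.14, adjusted p = 0.0380) and in refed liver (-1.04 ± 0.14, adjusted p = 0.0119). Cfi, the protease that inactivates C3b and C4b, read 678 and 712 CPM, 429.6 and 441, 619 and 723, and 370.1 and 466 in the same order and fell in refed liver (-0.68 ± 0.18, adjusted p = 0.0489, and -0.67, adjusted p = 0.111, in fasted liver). That call was also lost with RLE size factors. C4bp, the cofactor that binds C4b, stayed at 461 to 567 CPM in all 8 libraries, with differences of -0.09 ± 0.16 and 0.01 ± 0.16. Vtn and Clu, whose products block insertion of the terminal complex, had no overlap in fasted liver (log2 fold change -0.80 and -0.76, adjusted p = 0.176 and 0.186) and overlapped in refed liver.

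The membrane regulators Cd55, Cd59a and Cr1l, which protect host cells from complement, had log2 fold changes from -0.28 to 0.18 in both states. Cd46, which in mice is largely confined to the testis, had 9 to 36 counts per library, and Susd4, an inhibitor of the cascade, read 3.86 to 19.7 CPM with replicates far apart. Cd46 lay above WT in fasted and below it in refed liver, with an unadjusted interaction p of 0.0346 that did not hold after adjustment (0.583).

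Other genes of the pathway, from a list of 24 symbols of which 2 name the same gene, gave 22 genes of the files, and 21 were tested. In fasted liver Itgb2 alone was called, and it rose, where 0.921% of all tested genes were called higher. In refed liver 4 rose (Itgb2, Itgax, Vsig4 and Colec11), where 7.09% of all tested genes were called higher. C1rl, Cpn2, Crp and Gm5077 fell there, where 4.84% were called lower. Itgb2, the shared chain of the complement receptors CR3 and CR4, read 2.24 and 2.14 CPM in WT fasted, 8.12 and 7.01 in HRD1Alb fasted, 2.82 and 2.65 in WT refed and 7.72 and 7.32 in HRD1Alb-labelled refed liver (log2 fold change 1.79, adjusted p = 0.0186, and 1.46, adjusted p = 0.0119). Itgax, the CR4 alpha chain, and Vsig4, the C3b receptor of Kupffer cells, differed by 2.50 and 1.48 in refed liver (adjusted p = 0.0169 and 0.0332). Of those that fell, Cpn2, a subunit of the carboxypeptidase that inactivates anaphylatoxins, was at a log2 fold change of -1.20 (adjusted p = 0.0146), C1rl, a C1r-like protease, at -0.81 (adjusted p = 0.0409) and Crp, a pentraxin, at -0.76 (adjusted p = 0.0269). Colec11, a collectin of the lectin pathway, rose by 1.05 (adjusted p = 0.0488). Without HRD1Alb refed replicate 2 the log2 fold changes in refed liver were 2.58 for Itgax, 0.99 for Vsig4 and 0.89 for Colec11.

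Per kilobase of exon, levels over all libraries fell from C3 (1485 CPM per kilobase) through Vtn (1166), Clu (785), Cfb (381) and Cfi (267). C9, the terminal gene with the largest decrease, was at 202 CPM per kilobase in WT fasted and 44.7 in HRD1Alb fasted liver, which put it above C8b (146 and 69.2) in the first and below it in the second. The C1q chains were at 11.5 to 13.1 CPM per kilobase in the WT groups and at 34.3 to 59.2 in the HRD1Alb groups. The whole hepatocyte-made class summed to 19650 to 22580 CPM in the WT libraries and to 12970 to 16990 CPM in the HRD1Alb libraries. The macrophage-made class summed to 46.8 to 52.2 and to 127 to 311 CPM. As a share of unscaled counts the hepatocyte-made class took 1.72% and 1.86% in WT fasted and 1.47% and 1.7% in HRD1Alb fasted liver. In refed liver it took 1.88% and 2.14% in WT and 1.58% and 1.69% in HRD1Alb-labelled libraries. With library size alone its median log2 fold change was -0.40 in fasted and -0.69 in refed liver, with 4 of 23 genes positive in each. Hepatocyte markers moved in the same direction: 9 of 10 were lower in fasted and 8 of 10 in refed liver, with medians of -0.76 and -0.40 and a smallest adjusted p of 0.115 and 0.0834. Their summed level was 151200 to 170200 CPM in WT fasted, 102400 to 102800 in HRD1Alb fasted, 126900 to 136600 in WT refed and 78290 to 125700 in HRD1Alb-labelled refed liver, and no marker was at 0. Their part in the decrease was not tested.

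No complement gene passed the test for refeeding in either genotype by edgeR, where 1.2% of all tested genes were called higher and 1.41% lower on refeeding in WT liver, and 5.43% and 5.05% in HRD1Alb liver, 2.61% and 10.5% in either direction. No member had a called interaction, where the share was 0.0%. At an unadjusted p under 0.05 there were 1 member in WT, 3 in HRD1Alb and 3 for the interaction, against 16.3%, 31.7% and 8.44% of all tested genes. DESeq2 called 1 member lower on refeeding in HRD1Alb and none otherwise, and limma-trend called none. The shares of all genes called on refeeding by DESeq2 and limma-trend are not given here, so their counts are no result about the members. The median log2 fold change of the members on refeeding was 0.03 in WT and 0.19 in HRD1Alb liver. The interaction counts rest on the refed libraries labelled HRD1Alb: without replicate 1 of that group 10 members were called higher and 2 lower, where 15.4% and 18.0% of all genes were, and without replicate 2 no member was, where 0.458% and 0.232% of all genes were. For refeeding in HRD1Alb liver, the fit without replicate 1 called 12 members higher and 3 lower, where 24.8% and 26.6% of all genes were called, and that without replicate 2 called 0 and 2, where 10.7% and 9.0% were. For refeeding in WT liver both fits called 1 member higher and 2 lower, where 8.58% and 8.61% of all genes were called without replicate 1 and 8.47% and 8.56% without replicate 2.

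The 2 refed libraries labelled HRD1Alb differed by transcript length, and the members show it gene by gene. Among the 33 members with at least 10 counts in both, the log2 ratio of replicate 2 to replicate 1 had a Spearman rho of -0.644 with exon length, and 11 members were 2-fold or more apart. Within each of the other groups the rho was from -0.186 to 0.158, and 0 to 3 members were that far apart. The 9 of these members shorter than 1800 bases, a limit chosen after the values were seen, among them the 3 C1q genes, Cfp, Mbl1, Mbl2 and C8g, were all higher in replicate 2, by 0.70 or more on the log2 scale, and Masp1 was lower by -2.63. With a correction for transcript length the median of the macrophage-made genes in refed liver went from 1.96 to 1.56 and that of the hepatocyte-made genes from -0.89 to -0.90, and all 23 hepatocyte-made genes were on the negative side. That fit called 6 members higher and 11 lower in each state, where 3.41% and 2.95% of all genes were called in fasted and 9.97% and 10.2% in refed liver.

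**Figure D5:**
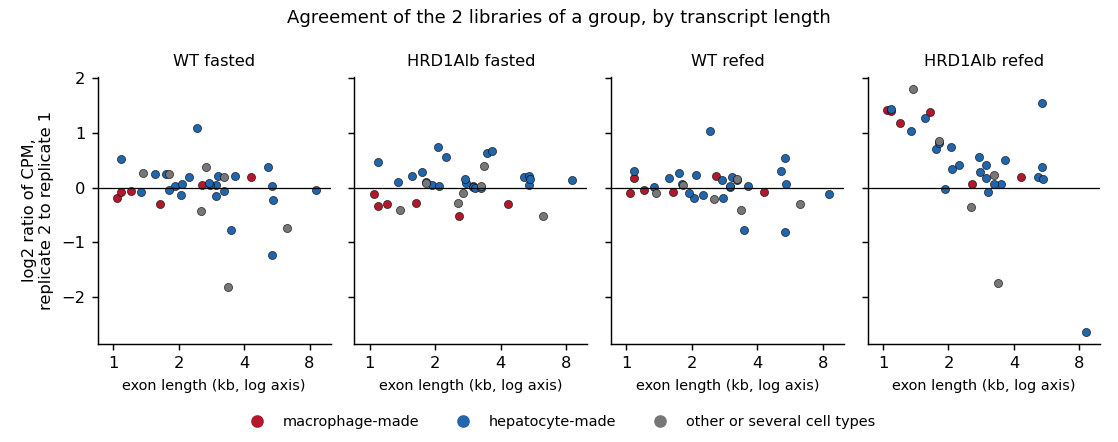
Log2 ratio of CPM in replicate 2 to replicate 1 (y axis) against exon length in kilobases (x axis, log scale) for complement genes with at least 10 counts in both libraries, 1 panel per group and coloured by cell source. The points lie along 0 in 3 groups and slope downward in the HRD1Alb refed group, where short transcripts are higher in replicate 2.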

How the data were processed

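RNA was extracted from 8 liver samples with TRIzol and sequenced on an Illumina NextSeq instrument, one lane a sample. The values the authors deposited are whole-number read counts per gene symbol, without normalization, in 1 file a sample. Their methods name ERANGE for counting and limma for testing, whereas the submitters' processing notes name cutadapt, STAR, HTSeq, DESeq2 and the mm10 build; which of them made the counts, the annotation and the use of strand are not given in the sources used here. How overlapping or near-identical genes were counted is therefore unknown, and reads of paralogs can be split.

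Samples were grouped by their labels. The complement genes and all gene lists were chosen with earlier results of these data known. In edgeR 4.0.16 (R 4.3.3), filterByExpr (minimum count 10, minimum total 15) kept 14328 of 23337 symbols, library sizes were normalized by TMM (factors 0.837 to 1.22), and 1 quasi-likelihood fit of 8 samples had a coefficient for each of the 4 groups. Benjamini-Hochberg adjustment ran over all tested genes, a gene was called at an adjusted p under 0.05, and the SE is the size of the log2 fold change over the square root of F. With 2 samples against 2, an exact permutation test gives no p below 0.333. Per-sample values were given for members called in a genotype contrast or the interaction, for those whose log2 fold change was 1 or more in size, and for macrophage-made members, and the other pathway genes were named where called, except some that are not reported here. Counting intervals and floors cover counting error only. Positions and exon lengths are from GENCODE M21 (GRCm38) for 22829 symbols. Promoters are from RefSeq, with windows for 30 of 38 members; C1qa, C2, C4a, C4b, Cfb, Cfi, Masp1 and Clu had none. Steps were tested on simulated data.

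The alternatives were RLE size factors, the DESeq2 1.42.0 Wald test, limma-trend (limma 3.58.1), no low-count filter, at least 10 counts in every sample, a replicate block, a fit to the 4 samples compared, a transcript length correction and each sample left out. Library size alone was added after the data were seen. Figures were drawn with matplotlib 3.10.9 in Python 3.11.15.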

Additional observations from a re-analysis of the deposited data

How the results depend on the processing

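Of the 33 log2 fold changes of called genes, none changed direction under any of the 17 alternatives. C1rb and Gm5077 had 16 of them, because the filter of 10 counts in every sample removed both. All 33 had been selected by passing the main fit to these same libraries, so an unchanged direction is no separate support. Calls were lost more often, and the cause was not tested. In refed liver Hc, C8a, C9, Cfhr2, Masp2, C1qc, C3ar1 and C5ar1 lost their call under 3 alternatives, the fit to only the 4 refed samples and the fits without either WT refed library. The calls of C4b, Cfi and Cfp were lost under 11, 10 and 9 of the alternatives. When 1 sample of a group is left out, the other is assumed to vary like the remaining groups.

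In fasted liver, 1 member was called higher and 4 lower, where 0.921% and 0.433% of all tested genes were called. Library size alone gave 6 and 2 (5.86% and 0.328% of all genes), and the DESeq2 Wald test 6 and 11 (4.41% and 3.22%). Only the 4 fasted samples gave 7 and 16 (8.26% and 6.32%), and the transcript length correction 6 and 11 (3.41% and 2.95%). In refed liver, 6 were called higher and 11 lower, where 7.09% and 4.84% of all genes were called. Only the 4 refed samples gave 0 and 0, where 0.0% were called in each direction. For refeeding, where no member was called, only the 4 samples of the contrast gave 1 higher in WT and the DESeq2 Wald test gave 1 lower in HRD1Alb. The shares of all genes called on refeeding in those fits are not given here, so these counts are no result about the members.

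Leaving out each library in turn gave 0 to 7 members higher and 0 to 20 lower in fasted liver and 0 to 11 higher and 0 to 19 lower in refed liver. It gave 0 to 1 higher and 0 to 2 lower for refeeding in WT, 0 to 12 higher and 0 to 3 lower for refeeding in HRD1Alb, and 0 to 10 higher and 0 to 2 lower for the interaction. The highest counts were reached on leaving out a refed library labelled HRD1Alb. In those fits more of all tested genes were called as well, and the shares are given beside the same counts above. For the fits that left out another library the shares are not given.

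With the replicate number as a replicate block, 0 members were called higher and 2 lower in fasted liver, where 0.572% and 0.258% of all genes were. In refed liver that fit called 5 higher and 11 lower, where 5.54% and 4.2% of all genes were called. Libraries of the same number deviated together with correlations of 0.0161 to 0.179 over the pairs of groups, so the numbers were not taken to pair the samples. The highest, 0.179, was between WT fasted and WT refed liver. Some members, such as C6 and C1rb, differed alike by number in those groups, and others, such as Hc, did not. A pairing of the WT groups alone was not tested.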
